A study of Mus musculus with 12 samples.

Results

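The mitochondrial genome has 13 protein-coding regions, all for core subunits of the respiratory chain and ATP synthase, and their RNA levels in mouse liver are described here. Each region is called an mRNA below, although mt-Atp8 and mt-Atp6 are known to share a single mRNA, as are mt-Nd4l and mt-Nd4. They are every row of the deposited expression table whose gene name begins with mt-, 13 of 25947 named rows. The rule used gene names alone, but it was set with earlier results of these data known. All 13 rows are mRNAs, with 0 rRNA and 0 tRNA rows among them, so the 2 rRNAs and 22 tRNAs that GENCODE M21 places on the same chromosome were not analysed here. The study crossed diet with liver ischemia-reperfusion injury (IRI) in mice whose genotype is labelled WT. The groups were HFD-IRI, HFD-Sham, ND-IRI and ND-Sham, with 3 livers each, where HFD is a high-fat diet and ND a normal diet, either given for 4 months. In IRI the vessels to the left and middle liver were tied for 1 h and the liver was then reperfused for 6 h, and in the sham operation they were not tied. Because all 4 groups had surgery, no group shows an unoperated liver, and the animals' age, sex and strain are not given in the labels used here.

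Values are in TPM, a unit that corrects for gene length and library size and keeps no depth, so counting errors are unknown. Each library listed 18935 to 20425 genes above 0 TPM, and the 50 most abundant genes held 44.4% to 49.3% of each library's total. Liver identity held in all 12 libraries: 7 of 8 hepatocyte markers were measured, with a summed level of 87824 to 98885 TPM in HFD-IRI, 90889 to 105898 in HFD-Sham, 88326 to 116606 in ND-IRI and 96369 to 116538 in ND-Sham. The first ND-Sham library stood apart in its group, with 84.2 TPM over 5 adipocyte markers where the rest of its group had 1.62 and 3.03, and 98.8 TPM over 5 lymphocyte markers, where they had 4.83 and 7.29. The adipocyte sum was also high in HFD-Sham 1 (79.5 TPM) and HFD-IRI 1 (59.3 TPM), nearly all of it Cfd. Adipoq had 11.6 TPM in the first ND-Sham library and at most 0.23 TPM in any other. In bulk tissue, fewer cells of a type and less RNA per cell cannot be told apart. The labels do not say that the livers of a group came from separate animals, so the p-values below reflect the scatter of these 12 samples, part of which may be technical.

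Mitochondrial DNA is transcribed as long precursors from both strands, and excised tRNAs release most of the mRNAs between them. Levels of single mRNAs can therefore differ through processing, tailing and decay although they share a precursor. Of the 13 mRNAs, 12 are read from one strand (plus in the annotation, the product of heavy-strand transcription), and mt-Nd6 is the only one read from the other. The LRPPRC and SLIRP proteins bind and stabilise the other mRNAs in mouse mitochondria, while ND6 mRNA in human cells carries no poly(A) tail or a very short one. Liver is rich in mitochondria, and ischemia stops the respiratory chain that these mRNAs serve. The libraries were made from RNA bound to oligo(dT) beads, so each value refers to molecules that such beads retained.

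The 3′ ends of 5 mRNAs show how the tails and the strands matter, and are given here from the GENCODE M21 transcripts (build GRCm38). The last 30 coding bases of mt-Nd5 (chrM:11742-13565, plus strand) and mt-Nd6 (chrM:13552-14070, minus strand), the mRNAs that fell on both diets, face each other and share 14 bases as reverse complements, in capitals.
mt-Nd5: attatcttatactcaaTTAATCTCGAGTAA
mt-Nd6: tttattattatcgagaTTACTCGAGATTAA
For mt-Co3 (chrM:8607-9390), mt-Nd4 (chrM:10167-11544) and mt-Cytb (chrM:14145-15288), all on the plus strand, the genome encodes only the first letter of the stop codon, in capitals, and the poly(A) tail supplies the rest.
mt-Co3: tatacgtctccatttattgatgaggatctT
mt-Nd4: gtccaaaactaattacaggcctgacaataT
mt-Cytb: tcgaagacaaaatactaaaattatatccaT
The other 10 mRNAs encode a complete stop codon. Coding regions also overlap on the same strand, by 43 bases between mt-Atp8 and mt-Atp6, by 7 between mt-Nd4l and mt-Nd4 and by 1 between mt-Atp6 and mt-Co3, so reads may be shared within these pairs.

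Levels of the 13 mRNAs did not follow the complexes. Over the 12 libraries mt-Co1, the catalytic subunit of complex IV, averaged 42036 TPM and was the second most abundant of all genes, and mt-Cytb of complex III, with 24743 TPM, was the third. The complex I mRNAs mt-Nd1 (15974 TPM), mt-Nd2 (15786 TPM), mt-Nd4 (9047 TPM), mt-Nd5 (6097 TPM) and mt-Nd6 (2895 TPM) were all among the 44 most abundant genes. The 6 mRNAs that lie between mt-Co1 and mt-Nd4 were lower on average, at 1294 TPM for mt-Atp6, 1168 for mt-Co2, 985 for mt-Co3, 282 for mt-Nd4l, 158 for mt-Atp8 and 157 for mt-Nd3. Together these 6 made 2.27% to 5.03% of the summed TPM of the 13 mRNAs. In no library did one of them reach the level of mt-Nd4.

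**Figure D1:**
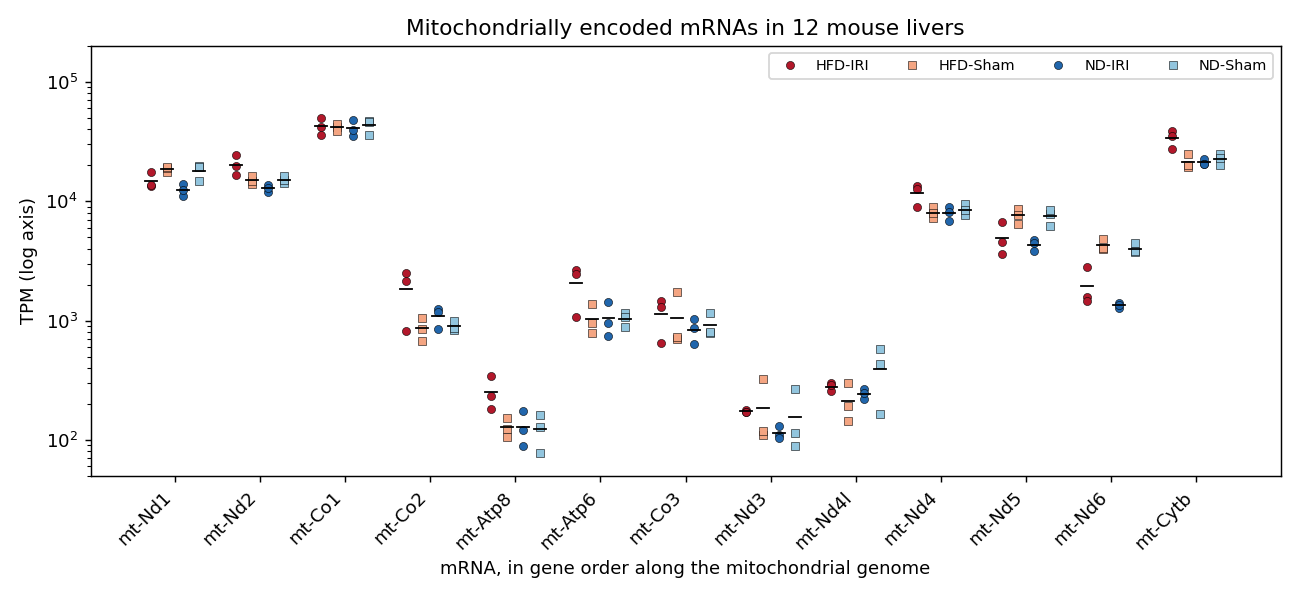
TPM of the 13 mitochondrially encoded mRNAs (log axis) in gene order along the mitochondrial genome, with 1 point per library and a bar at each group mean (n = 3). mt-Nd6 was lower in both IRI groups than in their sham groups without overlap, and the block from mt-Co2 to mt-Nd4l lay far below its neighbours.

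The same block is copied in the nuclear genome. A stretch of mouse chromosome 1 carries pseudogenes of mt-Co2 (Gm28661), mt-Atp6 (Gm10925), mt-Co3 (Gm28437), mt-Nd3 (Gm28438), mt-Nd4l (Gm10222) and the first 876 bases of mt-Nd4 (Gm28439). Of all 100-base windows of an mRNA, the share also found letter for letter in another annotated transcript was 99.5% for mt-Co2, 99.5% for mt-Atp6, 99.9% for mt-Co3, 97.6% for mt-Nd3 and 98.5% for mt-Nd4l. It was 60.8% for mt-Nd4, 30.8% for mt-Co1 and 3.19% for mt-Nd2, and 0 for mt-Nd1, mt-Nd5, mt-Nd6, mt-Cytb and mt-Atp8 among annotated transcripts. mt-Nd3 and its copy Gm28438 (chr1:24612775-24613119, minus strand, GRCm38) differ by 1 base in the 345 aligned, T3C counted from the first coding base, shown in capitals in the first 30 bases.
mt-Nd3: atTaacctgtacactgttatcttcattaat
Gm28438: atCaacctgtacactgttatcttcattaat
How the authors' pipeline placed reads that match both places is not stated in the sources used here. Its part in the low levels was not tested. No annotated transcript matched mt-Atp8, but its place lies inside the same stretch. The copies of mt-Co2 and mt-Atp6 keep the spacing of the mitochondrial genome, and 161 bases of mt-Atp8 fall opposite the unannotated gap of 233 bases between them, with the other 43 inside the copy of mt-Atp6. The bases of that gap were not analysed here, and the search would miss unannotated copies of the other mRNAs as well. The levels of the 5 nearly fully copied mRNAs, of mt-Nd4 and of mt-Atp8 are therefore uncertain, and that of mt-Co1 in part. Their changes below rest on the reads the pipeline kept. Less exact copies cover mt-Co1 (Gm13340, 37 mismatches in 1545 aligned bases), mt-Nd6 (Gm11408, 33 in 519) and mt-Cytb (Gm11410, 81 in 1142). None of the copies named here is a row of the deposited table.

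**Figure D2:**
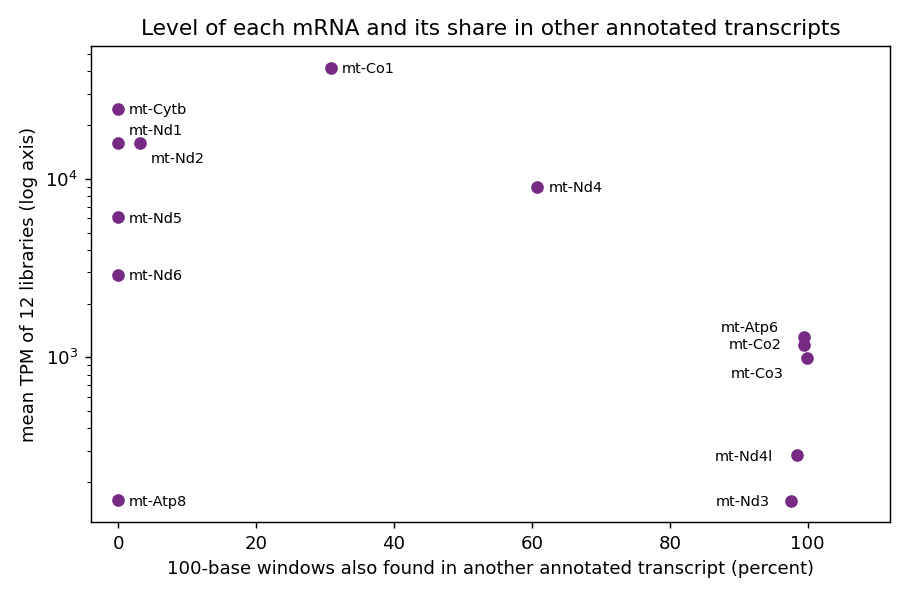
Mean TPM over 12 libraries (log axis) of each of the 13 mRNAs against the percent of its 100-base windows that occur in another annotated transcript (GENCODE M21). The 5 mRNAs at 97.6% or more lie between 157 and 1294 TPM, and mt-Atp8, at 158 TPM, has 0 windows in annotated transcripts although it lies opposite a gap in the copied stretch.

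IRI changed the mix of mitochondrial mRNAs on both diets. On the high-fat diet 6 of the 13 mRNAs rose (mt-Nd2, mt-Nd4, mt-Cytb, mt-Co2, mt-Atp6 and mt-Atp8) and 2 fell (mt-Nd5 and mt-Nd6). With the normal diet 0 rose and 3 fell (mt-Nd1, mt-Nd5 and mt-Nd6). Changes were tested with limma on log2(TPM + 1) over the 13364 genes that reached 1 TPM in 3 or more libraries, at an adjusted p under 0.05 (Benjamini-Hochberg), and all 13 mRNAs passed that filter. Over all tested genes 45.9% were called in the high-fat comparison (24% higher and 21.9% lower), beside 46.2% higher and 15.4% lower among the members. In the normal-diet comparison 46.8% were called (30.2% higher and 16.6% lower), beside 0% higher and 23.1% lower among the members, so the share of members that fell was near the background on both diets. Without overlap between the libraries, 4 members were higher and 2 lower on the high-fat diet, where 30.9% and 28.5% of all tested genes were, and 0 were higher and 4 lower on the normal diet, where 31.4% and 20% were. The median log2 fold change of the members was 0.42 on the high-fat diet, against 0.01 for all tested genes, and -0.12 on the normal diet, against 0.16. None of the 11 changes called in these comparisons reversed under the 23 other settings tried, but many of these settings cannot move a fold change. Those are the other filters, no variance trend, the replicate block, a fit of the compared groups alone and leaving out a library of the other diet. The calls of mt-Nd6 on both diets and of mt-Nd5 on the normal diet were kept under all 23. The high-fat calls were less stable: 2 were left without HFD-IRI 1 (mt-Cytb and mt-Nd6), 2 without HFD-IRI 3 (the same genes), 4 without any one HFD-Sham library, and mt-Nd6 alone with no filter on low values or with median-ratio scaling.

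**Figure D3:**
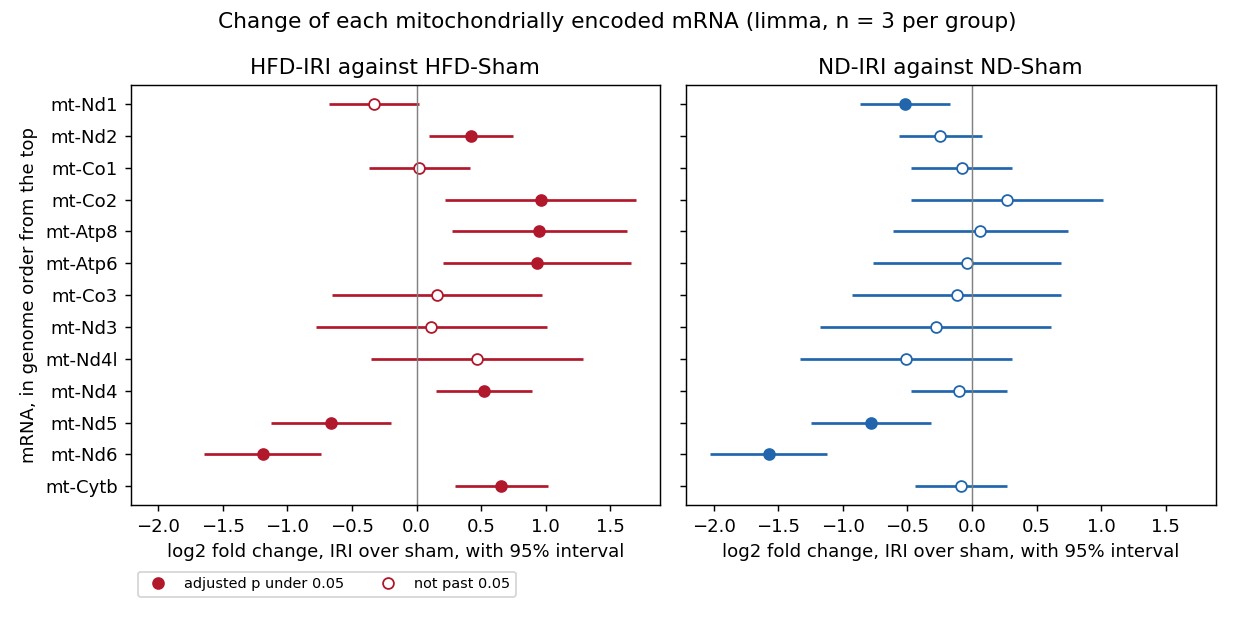
Log2 fold change of each mRNA with its 95% confidence interval, in HFD-IRI over HFD-Sham (left) and ND-IRI over ND-Sham (right), on the log2(TPM + 1) scale (limma, n = 3 per group), with filled points for an adjusted p under 0.05. mt-Nd5 and mt-Nd6 lie left of 0 on both diets, while mt-Cytb lies at 0.66 on the high-fat diet and at -0.09 on the normal diet, where it was not called.

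Of the 13 mRNAs the largest fall was that of mt-Nd6, a membrane subunit of complex I and the only light-strand mRNA. It had 1578, 2822 and 1463 TPM in the HFD-IRI livers, against 3952, 4862 and 4037 TPM in the HFD-Sham livers. On the normal diet it had 1269.5, 1400.1 and 1352 TPM in ND-IRI livers, against 3732, 4461 and 3815 TPM in ND-Sham livers. Every IRI library lay below every sham library, and HFD-IRI 2 lay between the other HFD-IRI libraries and the sham livers. The fall was 2.28-fold on the high-fat diet (log2 fold change -1.19, SE 0.21, adjusted p = 0.000753) and 2.98-fold on the normal diet (-1.57, SE 0.21, adjusted p = 0.000105). The size of the fall was not shown to differ between the diets (difference 0.38, 95% interval -0.26 to 1.02, adjusted p = 0.72). Among the 23 other settings the log2 fold change ran from -1.49 to -1.01 on the high-fat diet, with adjusted p up to 0.00558, and from -1.77 to -1.38 on the normal diet, with adjusted p up to 0.000936. HFD-IRI 2 also had the lowest HFD-IRI sums of 8 neutrophil markers (204 TPM, against 239 and 552) and of 8 red cell and platelet markers (664 TPM, against 2313 and 1792). In ND-IRI 1, 2 and 3 the neutrophil sums were 241, 650 and 586 TPM, and the red cell and platelet sums 551, 497 and 1565 TPM. The part of these cells in the mt-Nd6 level of HFD-IRI 2 was not tested.

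mt-Nd5, the distal proton-pumping subunit of complex I, fell with mt-Nd6. It had 4569, 6683 and 3586 TPM in HFD-IRI livers, against 6475, 8666 and 7707 TPM in HFD-Sham livers, and HFD-IRI 2 overlapped the sham group. ND-IRI livers had 3861, 4716 and 4432 TPM, against 6169, 7838 and 8460.2 TPM in ND-Sham livers, with no overlap. The log2 fold change was -0.66 on the high-fat diet (SE 0.21, adjusted p = 0.0239) and -0.78 on the normal diet (SE 0.21, adjusted p = 0.0103). The high-fat call was lost without HFD-IRI 1, HFD-IRI 3, HFD-Sham 2 or HFD-Sham 3 (adjusted p up to 0.0957 over all settings). The ratio of mt-Nd5 to mt-Nd6 TPM was 2.37 to 2.90 in HFD-IRI, against 1.64 to 1.91 in HFD-Sham, and 3.04 to 3.37 in ND-IRI, against 1.65 to 2.22 in ND-Sham. mt-Nd6 was thus lower relative to mt-Nd5 in every IRI library than in every sham library of its diet. The coding ends of the pair overlap on opposite strands, and in human cells ND5 mRNA runs on past its stop codon opposite ND6. The labels' protocol describes a dUTP step that keeps strand, but whether the counting used it is not given in the sources used here, so reads of the pair may not have been told apart.

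mt-Nd1, which joins the membrane arm of complex I to its matrix arm, was called on the normal diet. It had 17439.7, 13451 and 13786 TPM in HFD-IRI livers, against 17554, 18860.1 and 19364.5 TPM in HFD-Sham livers, a difference that did not pass (log2 fold change -0.33, adjusted p = 0.114) although the groups did not overlap. ND-IRI livers had 13907, 11023 and 12480 TPM, against 14638, 19705 and 19475 TPM in ND-Sham livers. The groups did not overlap, and the fall was 0.52 on the log2 scale (SE 0.16, adjusted p = 0.0199). Leaving out ND-IRI 2, ND-IRI 3, ND-Sham 2 or ND-Sham 3 ended the call (adjusted p up to 0.0834 among these), as did median-ratio scaling (0.0547) and no filter on low values (0.151). The difference between the diets was 0.19 (95% interval -0.31 to 0.69).

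mt-Nd2 and mt-Nd4, further proton-pumping subunits of complex I, rose on the high-fat diet. mt-Nd2 had 19569, 16742 and 24253 TPM in HFD-IRI livers, against 14043, 14634 and 16139.5 TPM in HFD-Sham livers. In the normal-diet livers it had 13637, 11906 and 12935 TPM in ND-IRI livers, against 14292, 15139.8 and 16148 TPM in ND-Sham livers. All HFD-IRI libraries were above their sham group and all ND-IRI libraries below theirs, but the rise of 0.42 on the high-fat diet was called (SE 0.15, adjusted p = 0.0357) and the normal-diet value was not (-0.24, adjusted p = 0.196). mt-Nd4 had 13322, 9002 and 12697 TPM in HFD-IRI livers, against 7249, 8925 and 7919.7 TPM in HFD-Sham livers. It had 8898, 6875 and 8102 TPM in ND-IRI livers, against 7639, 9468 and 8462 TPM in ND-Sham livers. The mt-Nd4 groups did not overlap on the high-fat diet (log2 fold change 0.52, SE 0.17, adjusted p = 0.0256), where HFD-IRI 2 exceeded the highest sham library only narrowly, and overlapped on the normal diet (-0.10, adjusted p = 0.653). Both high-fat calls were lost without HFD-IRI 1, HFD-IRI 3 or HFD-Sham 1; that of mt-Nd2 also without HFD-Sham 2 or ND-Sham 2, and that of mt-Nd4 also without HFD-Sham 3.

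The remaining complex I subunits, mt-Nd3 and mt-Nd4l, were low and variable. mt-Nd4l had 255, 298 and 287 TPM in HFD-IRI livers, against 144, 299.7 and 191 TPM in HFD-Sham livers. It had 265, 219 and 246 TPM in ND-IRI livers, against 164, 579.5 and 436 TPM in ND-Sham livers, and the low sham value belonged to the ND-Sham library with the adipocyte and lymphocyte markers. Neither diet gave a call (adjusted p = 0.334 on the high-fat and 0.287 on the normal diet), but without ND-Sham 1 mt-Nd4l was called lower in ND-IRI, for 4 calls in all. mt-Nd3 had 173 to 179 TPM in HFD-IRI, against 109.9 to 324 TPM in HFD-Sham, and 104 to 130.01 TPM in ND-IRI, against 88.5 to 266 TPM in ND-Sham. The highest value of each sham group, 324 and 266 TPM, stood far above its group's other libraries, and no change was called (adjusted p = 0.843 and 0.604). Both are nearly fully copied on chromosome 1.

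mt-Cytb, the only mitochondrially encoded subunit of complex III, rose on the high-fat diet. It had 38741.5, 27435 and 35140.3 TPM in HFD-IRI livers, against 19235, 24687 and 20103 TPM in HFD-Sham livers. ND-IRI livers had 22772, 20532 and 20425 TPM, against 20107, 24907 and 22829 TPM in ND-Sham livers. The high-fat groups did not overlap, with HFD-IRI 2 closest to the sham livers, and the normal-diet groups did. The log2 fold change was 0.66 on the high-fat diet (SE 0.16, adjusted p = 0.00674) and -0.09 on the normal diet (SE 0.16, adjusted p = 0.69). The high-fat rise was called whichever single library was left out, and was lost with no filter on low values and with median-ratio scaling (adjusted p up to 0.115). The difference between the diets was 0.74 (95% interval 0.24 to 1.25), with an unadjusted p of 0.0077 that did not survive adjustment over all genes (adjusted p = 0.248).

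Of the complex IV subunits, mt-Co2 was called higher on the high-fat diet, and mt-Co1 and mt-Co3 were called on neither diet. mt-Co1 had 49754, 42009 and 35745 TPM in HFD-IRI livers, against 41945, 44143 and 38703 TPM in HFD-Sham livers. It had 48251, 34861 and 39625 TPM in ND-IRI livers, against 36166, 47369.6 and 45856 TPM in ND-Sham livers. The groups overlapped on both diets, and the log2 fold changes were 0.02 (95% interval -0.37 to 0.41) and -0.08 (-0.47 to 0.31). mt-Co2 had 2502, 823 and 2162 TPM in HFD-IRI livers, against 1058, 853 and 670.2 TPM in HFD-Sham livers. HFD-IRI 2 lay within the range of the sham libraries, so the called rise of 0.96 (SE 0.34, adjusted p = 0.036) rested on HFD-IRI 1 and HFD-IRI 3. It was lost without either of them and also without HFD-Sham 2 or HFD-Sham 3. Summed red cell and platelet markers were likewise lower in HFD-IRI 2 (664 TPM) than in HFD-IRI 1 (2313) and HFD-IRI 3 (1792). In ND-IRI 1, 2 and 3 these sums were 551, 497 and 1565 TPM. There mt-Co2 had 1256, 1175 and 843 TPM, and mt-Atp6 had 1421, 746 and 959 TPM. The part of these markers' cells in mt-Co2 and mt-Atp6 was not tested. On the normal diet mt-Co2 had 843 to 1256 TPM in ND-IRI, against 831 to 988 TPM in ND-Sham (adjusted p = 0.538). mt-Co3 had 644 to 1460.2 TPM in HFD-IRI, against 697 to 1742 TPM in HFD-Sham, and 635 to 1029 TPM in ND-IRI, against 779.7 to 1158 TPM in ND-Sham (adjusted p = 0.755 and 0.815).

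The complex V subunits were both called higher on the high-fat diet: mt-Atp6, which forms the proton path of ATP synthase, and mt-Atp8, a small membrane subunit beside it that is read from the same mRNA. mt-Atp6 had 2665, 1078 and 2444 TPM in HFD-IRI livers, against 948, 1365 and 785 TPM in HFD-Sham livers. mt-Atp8 had 232, 183 and 346.5 TPM in HFD-IRI livers, against 124, 107 and 153 TPM in HFD-Sham livers. HFD-IRI 2 fell inside the sham range for mt-Atp6, as it did for mt-Co2, and above it for mt-Atp8. The log2 fold changes were 0.93 for mt-Atp6 (SE 0.33, adjusted p = 0.0382) and 0.95 for mt-Atp8 (SE 0.31, adjusted p = 0.026). Both calls were lost without HFD-IRI 1, HFD-IRI 3 or HFD-Sham 1; that of mt-Atp6 also without HFD-Sham 3, and that of mt-Atp8 also without HFD-Sham 2. On the normal diet mt-Atp6 had 746 to 1421 TPM in ND-IRI, against 886 to 1159 TPM in ND-Sham, and mt-Atp8 had 88.45 to 174 TPM, against 77.35 to 162 TPM (adjusted p = 0.94 and 0.878).

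As a whole, the 13 mRNAs took 15.2%, 12.1% and 13.3% of all TPM in HFD-IRI livers, against 11.5%, 12.8% and 11.7% in HFD-Sham livers. They took 11.7%, 9.43% and 10.3% in ND-IRI livers, against 10.6%, 13.3% and 12.9% in ND-Sham livers. The groups overlapped on both diets. The means were 13.6% ± 1.56 in HFD-IRI and 11.99% ± 0.747 in HFD-Sham (SD, n = 3 each), a difference of 1.58 percentage points beside a pooled SD of 1.22. They were 10.5% ± 1.14 in ND-IRI and 12.2% ± 1.46 in ND-Sham, a difference of -1.79 points beside a pooled SD of 1.31. Both differences were thus close to the spread between livers, and as sums over the members they were given no test. Without the first ND-IRI and ND-Sham libraries together the normal-diet difference was -3.24 points. Summed blood cell markers were higher in IRI than in sham livers on both diets. The 8 neutrophil markers summed to 204 to 552 TPM in HFD-IRI, against 6.80 to 15.9 in HFD-Sham, and to 241 to 650 in ND-IRI, against 19.2 to 21.6 in ND-Sham. Red cell and platelet markers, 8 in all, summed to 664 to 2313 TPM in HFD-IRI, against 75.6 to 129 in HFD-Sham, and to 497 to 1565 in ND-IRI, against 100.2 to 131 in ND-Sham. The part of these cells in the mitochondrial share was not tested.

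Within the pool of the 13 mRNAs, mt-Nd6 lost ground on both diets. It made 1.04%, 2.33% and 1.10% of the pool in HFD-IRI livers, against 3.45%, 3.79% and 3.46% in HFD-Sham livers, and 1.09%, 1.49% and 1.32% in ND-IRI livers, against 3.53%, 3.37% and 2.96% in ND-Sham livers. The ratio of mt-Cytb to mt-Nd6 TPM was 24.6, 9.72 and 24.0 in HFD-IRI, against 4.87 to 5.08 in HFD-Sham, and 14.7 to 17.9 in ND-IRI, against 5.39 to 5.98 in ND-Sham. The 6 sham livers of both diets thus kept a narrow ratio that no IRI liver reached. In the limma fit on TPM scaled to the pool, over 13440 genes, 34% were called on the high-fat diet (13.7% higher and 20.3% lower) and 39.9% on the normal diet (31.7% higher and 8.24% lower). On that scale mt-Nd6 fell by 1.36 on the high-fat diet (adjusted p = 0.000661) and by 1.35 on the normal diet (adjusted p = 0.000556), both on the log2 scale, and kept both calls under the 16 other settings. On the high-fat diet mt-Nd1 (-0.50, adjusted p = 0.0152) and mt-Nd5 (-0.83, adjusted p = 0.0128) also fell, and mt-Cytb (0.48, adjusted p = 0.0228), mt-Atp6 (0.76, adjusted p = 0.0326) and mt-Co2 (0.79, adjusted p = 0.0473) rose. Without HFD-IRI 3 mt-Nd6 alone was called, without HFD-IRI 1 mt-Nd1 and mt-Nd6 were, and without HFD-Sham 3 mt-Atp8, mt-Nd5 and mt-Nd6 were. On the normal diet mt-Nd6 was the 1 call, beside -0.55 for mt-Nd5 (adjusted p = 0.072) and -0.29 for mt-Nd1 (adjusted p = 0.125). The groups did not overlap for these 3, all lower, or for 4 that were higher but not called (mt-Co1, mt-Co2, mt-Nd4 and mt-Cytb). The share of all genes without overlap is not given here on the pool scale. Without HFD-IRI 2 mt-Nd5 was called on the normal diet as well, and without ND-Sham 1 mt-Nd4l was.

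**Figure D4:**
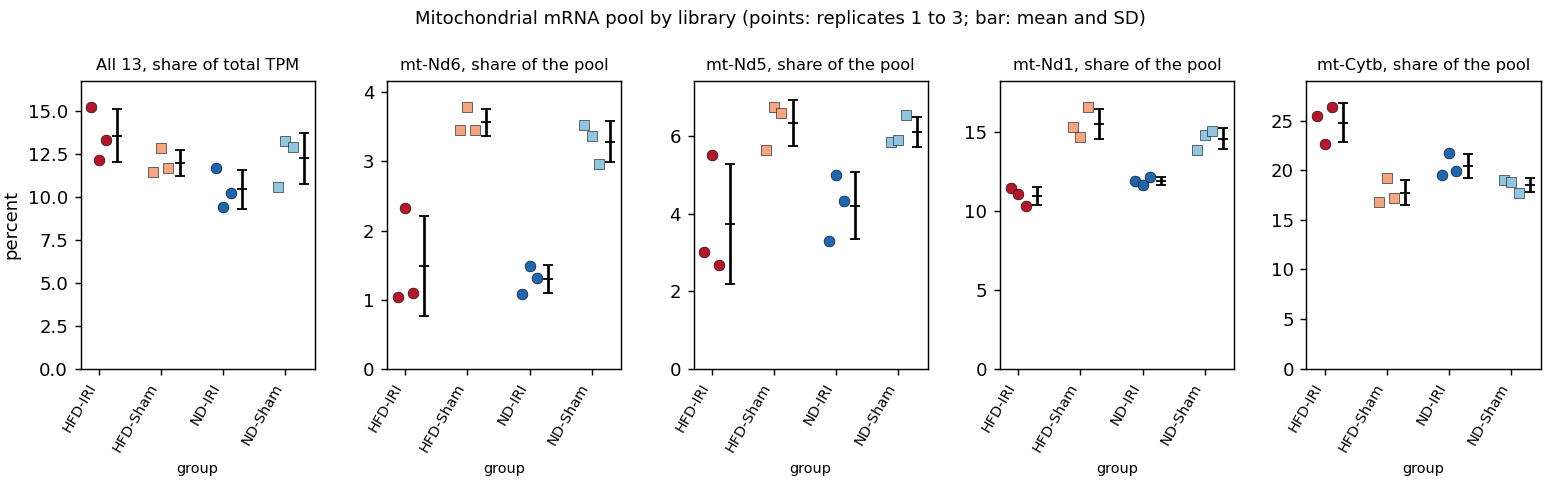
Share of all 13 mRNAs in total TPM (first panel, percent) and share of mt-Nd6, mt-Nd5, mt-Nd1 and mt-Cytb in the summed TPM of the 13 (other panels, percent), by library with the group mean and SD. The shares of mt-Nd6, mt-Nd5 and mt-Nd1 are lower, and that of mt-Cytb higher, in every IRI library than in every sham library of both diets. The gap is narrow for mt-Nd5 and mt-Cytb, and the share of the whole pool overlaps.

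The diets were compared first in sham livers, to show what the high-fat diet did without ischemia. None of the 13 mRNAs was called by limma, where 5.84% of all tested genes were, and the smallest adjusted p was 0.263 (mt-Nd4l). An unadjusted p under 0.05 in limma was reached by 0 of the 13, beside 2830 of the 13364 tested genes. The median log2 fold change of the members was -0.03, against 0.17 over all genes. For the most abundant mRNAs the 95% interval of the difference ran from -0.44 to 0.35 (mt-Co1) and from -0.44 to 0.27 (mt-Cytb). Without ND-Sham 1, mt-Nd4l was called lower in HFD-Sham. On the pool scale 0 of 13 were called, where 3.02% of genes were, and 1 had an unadjusted p under 0.05, beside 1780 of 13440 genes. The mitochondrial share of total TPM differed by -0.25 points beside a pooled SD of 1.16.

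In IRI livers mt-Nd2 was 1.56-fold higher in HFD-IRI than in ND-IRI (log2 fold change 0.64, SE 0.15, adjusted p = 0.0334), and mt-Cytb was 1.58-fold higher (0.66, SE 0.16, adjusted p = 0.0471), both without overlap. These were 2 of 13 mRNAs, 15.4%, where 2.38% of all tested genes were higher and 3.86% were called in either direction. The median over the members was 0.54, against 0.04 for all genes. In limma 6 of the 13 had an unadjusted p under 0.05, beside 2064 of the 13364 tested genes. Libraries did not overlap for 6 members, all higher in HFD-IRI, where 13.1% of all genes were. mt-Atp8 (0.99, adjusted p = 0.118), mt-Atp6 (0.93, adjusted p = 0.182), mt-Nd4 (0.54, adjusted p = 0.122) and mt-Nd6 (0.48, adjusted p = 0.289) did not pass. The mitochondrial share of total TPM was 13.6% ± 1.56 in HFD-IRI and 10.5% ± 1.14 in ND-IRI, without overlap, a difference of 3.11 points beside a pooled SD of 1.37. The calls depended on single libraries: 0 remained without HFD-IRI 1, HFD-IRI 3, HFD-Sham 1, ND-IRI 2, ND-IRI 3 or ND-Sham 2, 1 remained without HFD-Sham 3, ND-IRI 1 or ND-Sham 3, and 5 were made without HFD-IRI 2. On the pool scale 0 of 13 were called, where 3.34% of genes were, with a smallest adjusted p of 0.274. There 1 of the 13 had an unadjusted p under 0.05, beside 2404 of 13440 genes.

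Whether IRI acted differently on the diets was tested as the difference between the IRI effects. It gave 0 calls among the 13 mRNAs with limma, where 0.0973% of all genes were called. An unadjusted p under 0.05 was reached by 3 of the 13, beside 1345 of the 13364 tested genes. The 3 were mt-Cytb (difference 0.74), mt-Nd2 (0.66, adjusted p = 0.254) and mt-Nd4 (0.63, adjusted p = 0.381). The rises on the high-fat diet are therefore not shown to differ from the normal diet. On the pool scale 0 were called as well, where 0.543% of genes were called. There 0 of the 13 had an unadjusted p under 0.05, beside 2355 of 13440 genes.

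In IRI against sham livers, nuclear genes that serve mitochondrial RNA were called in both directions, in shares close to or below those of all tested genes. Of 39 genes for mitochondrial RNA processing, stability and decay, 9 rose (23.1%) and 6 fell (15.4%) in HFD-IRI, where 24% and 21.9% of all genes did. In ND-IRI 12 rose (30.8%) and 5 fell (12.8%), where 30.2% and 16.6% of all genes did. These ND-IRI calls numbered 10 without ND-IRI 2, and quantile normalization turned the split to 8 higher and 11 lower. Pde12, a nuclease that removes poly(A) tails in mitochondria, averaged 18.2 ± 4.11 TPM in HFD-IRI and 4.72 ± 0.635 TPM in HFD-Sham (SD, n = 3 each). On the normal diet it averaged 15.7 ± 3.88 TPM in ND-IRI and 3.92 ± 0.290 TPM in ND-Sham, with log2 fold changes of 1.73 and 1.74 (adjusted p = 6.04e-05 and 5.15e-05). Trmt10c, a subunit of the enzyme that cuts tRNA 5′ ends, rose by 1.45 in HFD-IRI and 1.38 in ND-IRI (adjusted p = 1.47e-05 and 1.81e-05). Its partner Hsd17b10 averaged 404 ± 67.6 TPM in HFD-IRI and 183 ± 5.10 TPM in ND-IRI, and 447 ± 30.9 TPM in ND-Sham. It fell by 1.28 on the normal diet (adjusted p = 2.18e-05) and was 1.12 higher in HFD-IRI than in ND-IRI (adjusted p = 0.000715). Under the rule for naming genes, its change in HFD-IRI against HFD-Sham is not given here. For the difference between the IRI effects, 1 of the 39 genes was called (2.56%), where 0.0973% of all genes were. Of 22 genes for mitochondrial DNA transcription and replication, 4 rose (18.2%) and 3 fell (13.6%) in HFD-IRI, and 6 rose (27.3%) and 2 fell (9.09%) in ND-IRI, a split that turned to 2 and 7 with median-ratio scaling and to 1 and 8 with quantile normalization. Of the 8 ND-IRI calls, the count was 2 when ND-IRI 2, ND-IRI 3 or ND-Sham 2 was left out, 3 in a fit of the compared groups alone, and 5 with the replicate block or without HFD-Sham 1, HFD-Sham 2 or HFD-IRI 1. Tfam, which packages mitochondrial DNA and starts its transcription, averaged 21.8 ± 2.95 TPM in HFD-IRI and 34.3 ± 0.745 TPM in HFD-Sham (-0.64, adjusted p = 0.00552).

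Among nuclear subunits of the same complexes no gene was called higher, apart from 1 of 14 complex IV genes on each diet, a call that on each diet was lost with a filter of 5 TPM and without several single libraries. Of 37 nuclear complex I genes, 0 rose and 4 fell (10.8%) in HFD-IRI, where 21.9% of all genes fell, and 0 rose and 10 fell (27%) in ND-IRI, where 16.6% did, with medians of -0.18 and -0.21, against 0.01 and 0.16 for all genes. Ndufs7, a matrix-arm subunit, averaged 51.0 ± 5.87 TPM in HFD-IRI and 74.5 ± 2.05 TPM in HFD-Sham, and 53.5 ± 2.89 TPM in ND-IRI and 83.6 ± 6.71 TPM in ND-Sham (adjusted p = 0.00212 and 0.00076). The complex I counts were 2 without HFD-Sham 2, 5 without ND-Sham 1 or ND-Sham 2, and 4 without ND-IRI 3. Of 9 nuclear complex III genes, 0 rose on either diet, and 1 fell in HFD-IRI (11.1%) and 2 in ND-IRI (22.2%). Uqcrfs1, the iron-sulfur subunit, fell on both diets (-0.36, adjusted p = 0.00562, and -0.29, adjusted p = 0.0169). For complex V 0 of 18 genes rose, and 1 fell in HFD-IRI (5.56%) and 3 in ND-IRI (16.7%). Of 44 assembly factors, 0 rose and 18 fell (40.9%) in HFD-IRI. In ND-IRI 2 rose and 10 fell (22.7%), and 6 calls were left without ND-IRI 3. Taco1, which activates translation of mt-Co1 mRNA, averaged 19.4 ± 2.49 TPM in HFD-IRI and 40.9 ± 3.39 TPM in HFD-Sham (-1.04, adjusted p = 0.000141). Of 78 mitochondrial ribosomal proteins, 2 rose (2.56%) and 16 fell (20.5%) in HFD-IRI, and 5 rose (6.41%) and 9 fell (11.5%) in ND-IRI. The shares that fell and those that rose were both below those of all genes on both diets. Their medians were -0.21 and -0.07, against 0.01 and 0.16 for all genes. With median-ratio scaling, 30 ribosomal proteins, 19 complex I genes and 19 assembly factors fell in ND-IRI. The HFD-IRI calls of that list numbered 8 to 11 without HFD-Sham 1, HFD-Sham 2, HFD-IRI 1 or HFD-IRI 3. Of 37 translation factors and tRNA synthetases, 2 rose and 16 fell (43.2%) in HFD-IRI. In ND-IRI 8 rose (21.6%) and 7 fell (18.9%), a split that turned to 4 and 14 with median-ratio scaling, and 6 to 9 calls were left when the second or the third library of ND-IRI or of ND-Sham was taken out. Among 12 regulators of mitochondrial biogenesis, 6 rose (50%) and 4 fell (33.3%) on each diet. Of all tested genes, 24% rose and 21.9% fell in HFD-IRI, and 30.2% rose and 16.6% fell in ND-IRI. The called regulators included Pprc1, a coactivator related to PGC-1α (2.19, adjusted p = 1.1e-05, and 2.07, adjusted p = 1.42e-05), and the mitochondrial deacetylase Sirt3 (-1.22, adjusted p = 7.76e-05, and -1.42, adjusted p = 2.61e-05).

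**Figure D5:**
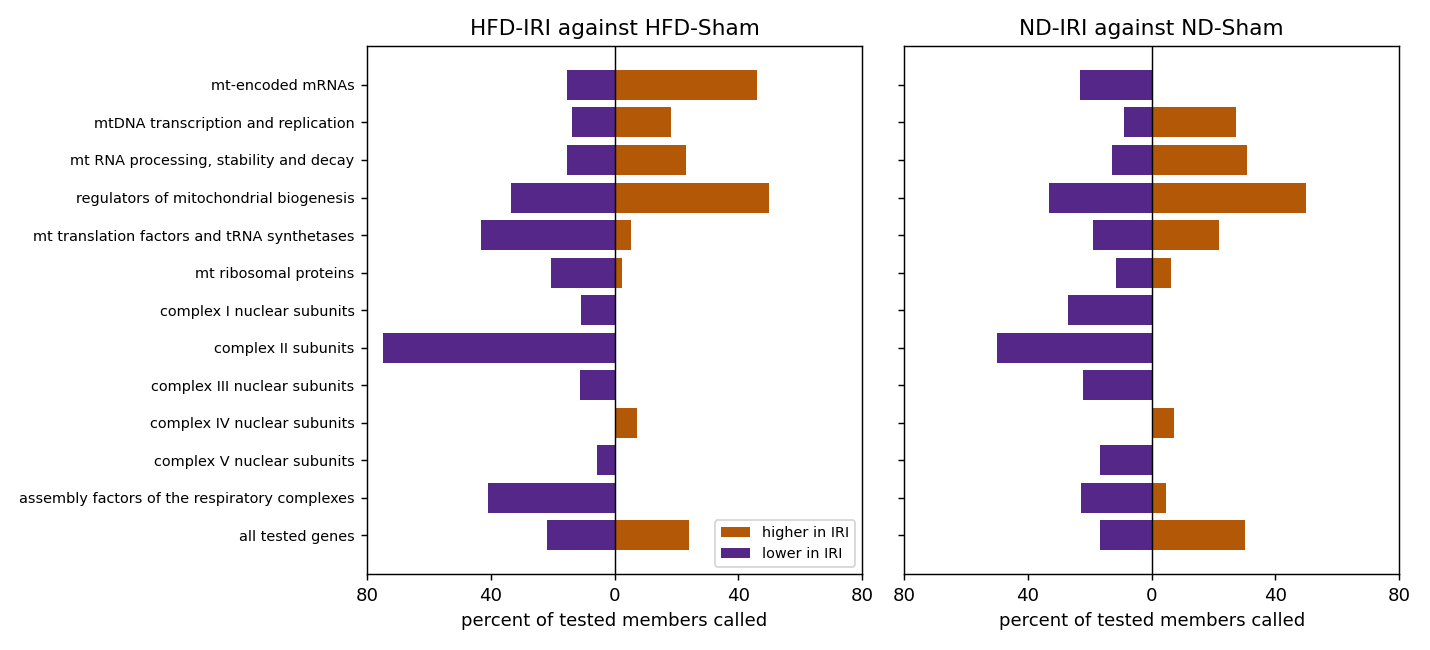
Percent of tested genes called higher (right of 0) and lower (left of 0) in HFD-IRI over HFD-Sham and ND-IRI over ND-Sham, for the 13 mitochondrially encoded mRNAs, 11 lists of nuclear genes and all tested genes. Nuclear subunits of complexes I, II, III and V have bars to the left alone on both diets.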

How the data were processed

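Oligo(dT)-selected liver RNA was, per the labels' protocols, made into libraries with a dUTP step that marks strand and sequenced by a BGI instrument. The deposited table holds TPM per gene and library, made by the authors; the build named is GRCm39, per the submitters' processing notes. Aligner, counting tool, annotation, use of strand and treatment of multiply placed reads are not given in the sources used here. A second sheet with 23 columns for 6 genes matched no sample by name and was left out.

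Genes reaching 1 TPM in 3 or more of 12 libraries were tested on log2(TPM + 1) with limma 3.58.1 (R 4.3.3), a mean per group, a variance trend and two-sided Benjamini-Hochberg adjusted p-values over all tested genes of a contrast. A second fit divided each library's TPM by its sum over the 13 mRNAs. With 3 livers against 3, an exact permutation test cannot go below p = 0.1 and was not used. The method was tested on simulated data. Members and lists were chosen with earlier results of these data known. All 13 members are named. From each nuclear list and contrast, the 2 largest rises and 2 largest falls could be named, if called, without overlap, and averaging 5 TPM or more in the higher group. Sequences, coordinates and copies come from GENCODE M21 transcripts (GRCm38), which is not the authors' build, and were compared with BLAST 2.17.0. Python 3.11.15 and matplotlib 3.10.9 made the figures. Cell type markers were hepatocyte, Kupffer cell, endothelium, stellate cell, cholangiocyte, neutrophil, red cell and platelet, adipocyte, striated muscle and lymphocyte lists. Alternatives tried were a pseudocount of 0.1 TPM, dropping the filter or raising it to 5 TPM, median-ratio or quantile scaling, other denominators, no variance trend, a replicate block, a fit of the compared groups alone, and leaving out libraries.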

Additional observations from a re-analysis of the deposited data

Results flagged for a closer look

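The libraries of mt-Nd2 lay on opposite sides of their sham groups on the diets. All 3 HFD-IRI libraries (16742 to 24253 TPM) lay above the HFD-Sham libraries (14043 to 16139.5 TPM), and all 3 ND-IRI libraries (11906 to 13637 TPM) lay below the ND-Sham libraries (14292 to 16148 TPM). The high-fat rise was called (log2 fold change 0.42, adjusted p = 0.0357, limma), and the normal-diet value was not (-0.24, adjusted p = 0.196). The difference between the log2 fold changes was 0.66 (SE 0.21), with an unadjusted p of 0.00811 and an adjusted p of 0.254 in limma over all genes, so it did not pass.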

How the results depend on the processing

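Among the 13 calls on the TPM scale none reversed, though many of the settings cannot move a fold change. For mt-Cytb in HFD-IRI against ND-IRI, quantile normalization gave a difference of 0. That scaling gives equal ranks the same value in every library, so this 0 reflects the rank and not the level. In HFD-IRI against HFD-Sham the count of 8 calls became 1 with no filter, 1 with median-ratio scaling and 5 with only the libraries of the groups compared, and ran from 2 to 8 when single libraries were left out. In HFD-IRI against ND-IRI the count of 2 became 0 with no filter, with median-ratio scaling, with TPM divided by the sum over genes neither mitochondrial nor among the 50 most abundant, and with only the groups compared, and ran from 0 to 5 with single libraries left out. Single libraries moved HFD-Sham against ND-Sham between 0 and 1 calls, and on the pool scale ND-IRI against ND-Sham between 1 and 2, HFD-IRI against HFD-Sham between 1 and 7 and HFD-Sham against ND-Sham between 0 and 1. Without the first ND-IRI and ND-Sham libraries together, HFD-Sham against ND-Sham had 1 call, HFD-IRI against ND-IRI had 1, and on the pool scale ND-IRI against ND-Sham had 2, HFD-Sham against ND-Sham had 1 and the difference between the IRI effects had 1 (the added call was mt-Nd4l each time; in HFD-IRI against ND-IRI mt-Nd2 remained). The difference of the mitochondrial share in ND-IRI against ND-Sham was then -3.24 points, and that between the IRI effects 4.82 points, against 3.36 with all libraries. The difference between the IRI effects was 4.66 points when the 50 most abundant other genes were left out of the total. The cause of these moves was not tested.

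Median-ratio scaling moved the median of all genes from 0.16 to 0.00 in ND-IRI against ND-Sham and from 0.17 to 0.01 in HFD-Sham against ND-Sham. It changed the all-gene calls to 3466 higher and 3279 lower in ND-IRI against ND-Sham, beside 4035 and 2213 without it, and to 275 and 209 in HFD-Sham against ND-Sham, beside 619 and 161. Without a filter 25140 genes were tested.

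Replicate numbers recur in every group, but the labels do not say that they pair livers. Correlations of same-numbered livers' deviations ran from -0.19 to 0.00 across the operations and from -0.18 to 0.42 across the diets. Values for livers with different numbers are not given beside them, so these correlations cannot decide on pairing. The numbers were not taken as pairs because no label pairs them. With the replicate number as a block, HFD-IRI against ND-IRI had 1 call in place of 2 (mt-Cytb was lost), and mt-Cytb was lost in HFD-IRI against HFD-Sham on the pool scale. Among the members, the other counts of calls moved by less than 1.5 times. Over all genes, the lower calls for the difference between the IRI effects numbered 4 with the block and 7 without it, and on the pool scale 44 and 67. The nuclear genes for mitochondrial DNA transcription and replication had 5 calls in ND-IRI against ND-Sham with the block, in place of 8, and the 1 complex IV call there was lost.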

Other observations

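By complex, the 7 complex I mRNAs made 37.4% to 42.2% of the pool in HFD-IRI, against 43.2% to 47.6% in HFD-Sham, and 35.9% to 38.7% in ND-IRI, against 43.2% to 44.2% in ND-Sham, with no overlap on either diet. The 3 complex IV mRNAs made 29.4% to 35.8% in HFD-IRI, against 34.4% to 39.1% in HFD-Sham, and 38.9% to 43.2% in ND-IRI, against 35.8% to 37.2% in ND-Sham. The ratio of mt-Cytb to mt-Nd5 TPM was 4.11 to 9.80 in HFD-IRI, against 2.61 to 2.97 in HFD-Sham, and 4.35 to 5.90 in ND-IRI, against 2.70 to 3.26 in ND-Sham. These shares and ratios were computed after the single mRNAs had been seen and were not tested.

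Among the other cell type markers, 4 of 4 cholangiocyte markers and 8 of 8 neutrophil markers rose in IRI livers on both diets. Of 7 tested red cell and platelet markers, 5 rose in HFD-IRI (median log2 fold change 3.83) and 7 in ND-IRI (3.22), and on each diet 3 of 6 Kupffer cell markers fell. Of 6 endothelial markers 2 rose and 1 fell on each diet. Stellate cell markers had 0 of 6 higher and 1 lower in HFD-IRI, with 0 called in ND-IRI. Over all tested genes 24% were higher and 21.9% lower in HFD-IRI, and 30.2% and 16.6% in ND-IRI. The endothelial shares, 33.3% higher and 16.7% lower on each diet, lay near these, and the stellate shares lay below them. Striated muscle markers summed to at most 1.56 TPM in any library.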
